A study of Mus musculus with 2 samples.

Results

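The genes described here encode the machinery of G2 and mitosis: 34 genes, given as a list of names, whose rows were taken from the expression matrices of both libraries of the study, which hold 27998 genes each. All 34 had at least 1 UMI (unique molecular identifier, a tag that lets each captured mRNA molecule be counted once) in both libraries. The study sorted live CD11b+ Gr1+ cells, a gate that takes mainly neutrophils and monocytes, from the spleens of wild-type mice of the FVB/n strain and of tumour-bearing PyMT mice, which carry the polyoma virus middle T oncogene as a model of mammary cancer. No further treatment is recorded for either group, and the labels give no age and no promoter for the transgene. Cells of 5 wild-type mice were pooled into 1 library and cells of 3 PyMT mice into another, so mice cannot be told apart within a library. With 1 library per group no test between the groups is possible, and every interval below is a 95% interval that covers counting error only.

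Mitosis is run by a wave of transcription that starts in late S phase and peaks as cells divide. CDK1 with A- and B-type cyclins starts mitosis, the Aurora and Polo-like kinases build the spindle and correct its attachments, and the anaphase-promoting complex ends mitosis by destroying cyclin B and securin. Promoters of this wave typically carry a cell cycle genes homology region (CHR), the docking element of the DREAM and MYB-MuvB complexes, close to boxes bound by NF-Y. In the neutrophil lineage, division stops as cells pass from promyelocyte and myelocyte to metamyelocyte, while the gene for the secondary granule protein cathelicidin (Camp) is switched on before division ends and is silent in mature cells.

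Promoter sequences of 28 of the 34 genes were found in a RefSeq table (build GRCm38.p6) that spans 250 bases before to 50 bases after the start of each gene. Ccna2, Tpx2, Aurkb, Kif20a, Smc4 and Stmn1 were not in it. The windows of 6 members are given here because these genes mark the contrast described later. Cdc20, Ccnb1 and Ccnb2 were on the side higher in PyMT cells that expressed the members, and Top2a and Kif11 on the lower side. Cdk1 is given as the central kinase. Each line gives the 150 bases before the RefSeq start, 5' to 3' along the gene, and capitals mark the letters of the CHR (TTTGAA or TTCGAA) and of the NF-Y box (CCAAT) on either strand, so that a CHR read on the other strand appears as TTCAAA and an NF-Y box as ATTGG.
Cdc20, chr4:118437344-118437493, minus strand: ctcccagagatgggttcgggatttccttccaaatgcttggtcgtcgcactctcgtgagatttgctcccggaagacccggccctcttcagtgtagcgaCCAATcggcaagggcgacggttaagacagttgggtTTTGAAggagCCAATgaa
Ccnb1, chr13:100786487-100786636, minus strand: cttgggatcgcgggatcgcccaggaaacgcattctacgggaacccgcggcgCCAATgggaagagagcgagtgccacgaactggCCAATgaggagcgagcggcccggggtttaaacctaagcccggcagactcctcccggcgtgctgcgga
Ccnb2, chr9:70421555-70421704, minus strand: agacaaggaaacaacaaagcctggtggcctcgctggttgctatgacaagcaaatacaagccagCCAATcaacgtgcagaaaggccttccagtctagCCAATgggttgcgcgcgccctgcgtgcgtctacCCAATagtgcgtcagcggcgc
Cdk1, chr10:69352913-69353062, minus strand: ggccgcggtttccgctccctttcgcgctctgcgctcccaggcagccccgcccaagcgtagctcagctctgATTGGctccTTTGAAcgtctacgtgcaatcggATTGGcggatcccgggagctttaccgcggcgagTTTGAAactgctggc
Top2a, chr11:99024190-99024339, minus strand: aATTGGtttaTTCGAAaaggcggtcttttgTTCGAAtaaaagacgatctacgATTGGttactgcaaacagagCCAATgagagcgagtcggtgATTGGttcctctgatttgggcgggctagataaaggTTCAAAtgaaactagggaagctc
Kif11, chr19:37376232-37376381, plus strand: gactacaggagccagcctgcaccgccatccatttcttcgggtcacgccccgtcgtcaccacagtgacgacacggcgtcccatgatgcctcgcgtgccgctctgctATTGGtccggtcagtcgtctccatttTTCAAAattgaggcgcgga

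In Cdc20 the CHR letters began 18 bases before the start, at position -18, between NF-Y letters at -53 and -8. Cdk1 had CHR letters at -71 and -15 and Kif11 at -19, each with NF-Y letters further upstream. Top2a carried 4 matches to the CHR, at -179, -140, -120 and -23, and 6 to the NF-Y box. Ccnb2 had NF-Y letters at -87, -54 and -21, and its CHR letters lay at -167 and at base 5 after the start, outside the part shown. Ccnb1 had NF-Y letters at -99 and -67 and no CHR letters in this window, which says nothing of other windows.

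Over the full windows of 300 bases, 22 of the 28 members (78.6%) held CHR letters on either strand, beside 19.4% of the 27025 promoters in the table and 14.0% of the 6927 promoters of genes with at least 50 UMIs in the Camp-rich neutrophils described below. CCAAT was found in 23 members (82.1%), beside 37.9% of all promoters, and both motifs in 20 members (71.4%), beside 7.70%. Neither motif is contained in the other. CHR letters within 50 bases of the start were present in 19 members (67.9%), beside 5.29% of all promoters. A separate list of other mitosis genes had a like share, 22 of 31 with CHR letters (71.0%), whereas a list of DNA replication genes had 5 of 33 (15.2%), close to the share of all promoters, with CCAAT in 20 (60.6%). Members without CHR letters here were Ccnb1, Cks2, Birc5, Cenpe, Nusap1 and Tacc3. A match is a description of letters and not a measured binding site.

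**Figure D1:**
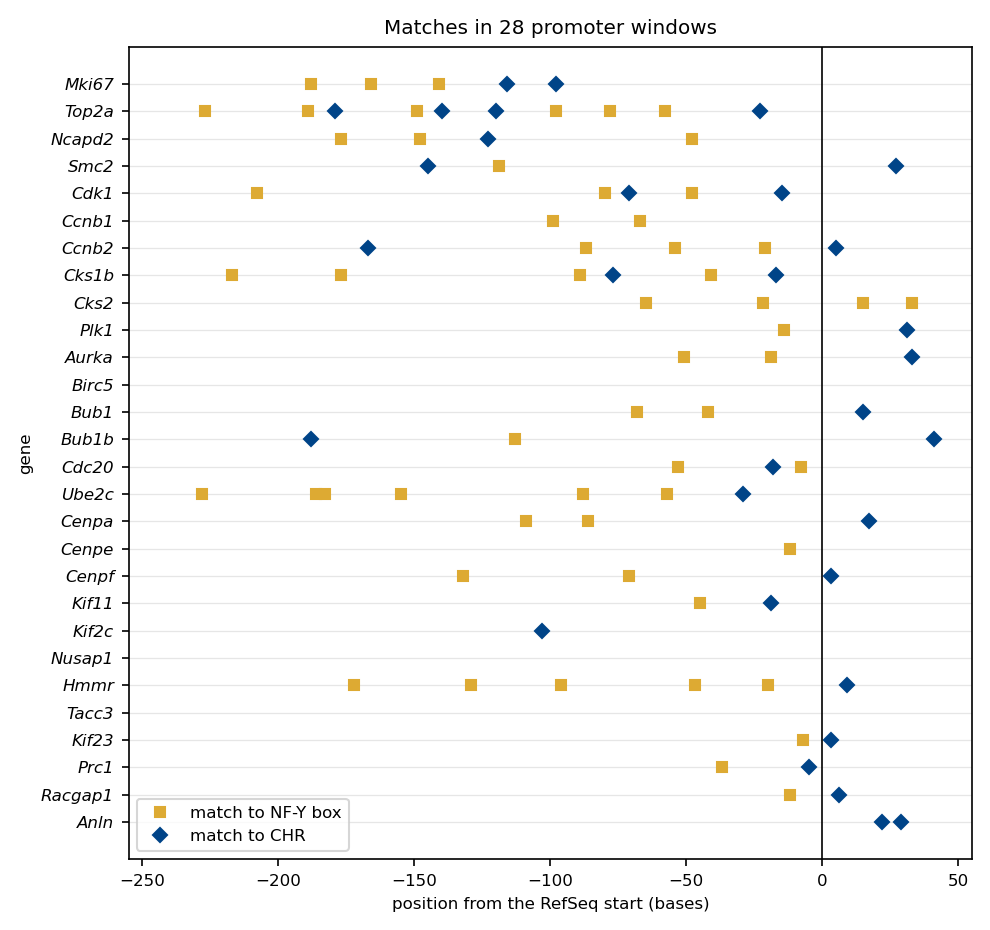
Matches to the CHR (diamonds) and to the NF-Y box (squares) in the promoter windows of 28 members, by distance in bases from the RefSeq start on the x axis. Of 32 CHR matches, the median position was -17.5, and the 57 NF-Y box matches had a median position of -80.0.

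Depth differed: 5491 wild-type cells gave 42542700 UMIs, and 9155 PyMT cells, of which 9150 passed the cell filter, gave 73435307. Levels are in CPM, the UMIs of a gene or set scaled to the total of the class or library in the usual CPM unit. The members made up 38561 UMIs in wild type (906 CPM) and 39195 in PyMT (534 CPM). The libraries shared 72 cell barcodes. Cells were put in classes by their own transcripts: progenitors with at least 0.1% of UMIs from the primary granule genes Mpo, Elane, Prtn3 and Ctsg; neutrophils with at least 10% from S100a8 and S100a9, split by Camp into Camp-high (4% or more of UMIs), Camp-mid (1 to 4%) and Camp-low (under 1%); monocytes by Csf1r and Ccr2; and B cells by Cd79a and Cd79b. No member is used in these rules. Camp-high cells numbered 3420 in wild type and 1610 in PyMT, Camp-mid 467 and 1800, Camp-low 55 and 2055, monocytes 599 and 1580, B cells 304 and 1081, and progenitors 46 and 50. The 46 wild-type cells of the progenitor class carried many neutrophil transcripts (a median of 18.6% S100a8 and S100a9 and 5.47% Camp, against 12.2% and 0.387% in PyMT), and with fewer than 50 cells this class is given without a ratio. The basophil and mast cell markers Mcpt8, Prss34 and Cpa3 summed to 1379 CPM in PyMT progenitors and were at 0 in wild-type ones. The progenitor classes of the libraries thus differed in content. Median depth was 5739.5 UMIs per Camp-high cell in wild type and 11522 in PyMT, so shares of cells are given after thinning each cell to 2500 UMIs as well as in full.

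Progenitors had the highest summed level of the 34 genes, 2098 CPM in wild type and 3046 CPM in PyMT. Among the classes defined by a rule, Camp-high neutrophils followed in both libraries, with 978 (966 to 989.6) and 622 (611 to 633) CPM. Cells that no class rule took are left out of this order. They held 1069 and 698 CPM, above Camp-high neutrophils, and are described near the end. The next classes were monocytes with 495 and 596 CPM and Camp-mid neutrophils with 381 and 454 CPM. Camp-low neutrophils (290.5 and 149 CPM) and B cells (262 and 290.0 CPM) were lowest. In the wild-type library the intervals of Camp-low neutrophils (223 to 372) and B cells (235 to 292) overlapped, so those neighbours in the order did not differ beyond counting error.

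**Figure D2:**
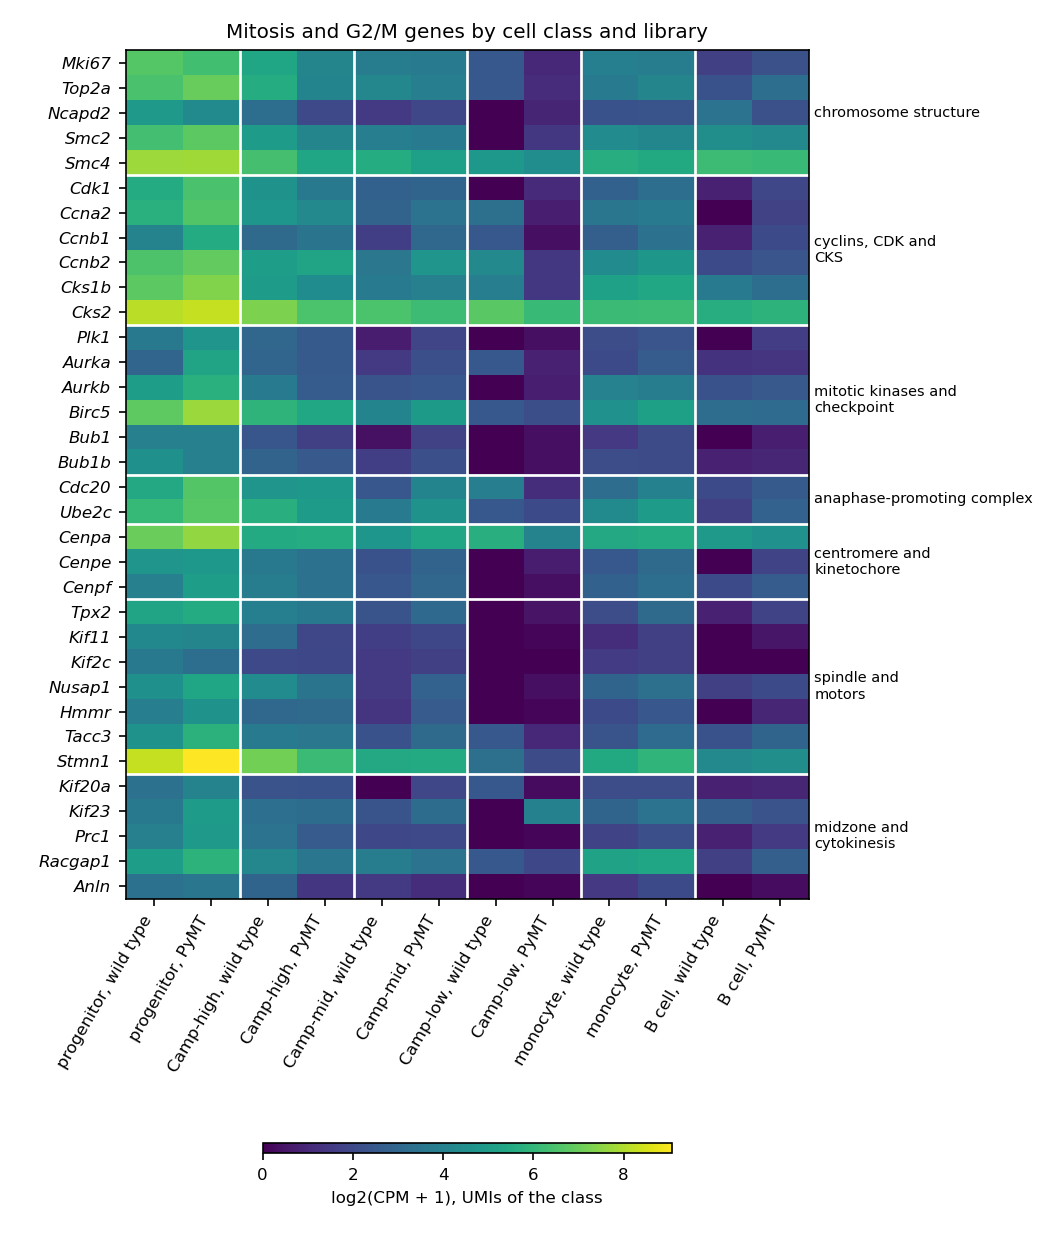
Level of each of the 34 genes, grouped by role, in 6 cell classes of both libraries, as log2(CPM + 1) of the UMIs summed over the class. Columns of progenitors and of Camp-high neutrophils are brightest, and in the PyMT Camp-low column only Cks2, Smc4, Cenpa and Kif23 stay above 10 CPM.

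Most of the members' UMIs came from few cells that expressed many members at once. After thinning, 400 of 3420 wild-type Camp-high cells (11.7%, 10.6 to 12.8) and 189 of 1610 PyMT Camp-high cells (11.7%, 10.2 to 13.4) held at least 3 UMIs of the set. These set-positive cells carried 84.8% of the set's UMIs of the class in wild type and 81.7% in PyMT. Camp-high cells with at least 10 UMIs of the set in full depth, 419 in wild type and 201 in PyMT, contained a median of 18 and 16 different members. In full depth the shares with at least 3 UMIs were 21.4% (20.1 to 22.8) and 26.0% (23.9 to 28.2), so the difference between libraries seen at full depth was absent at matched depth. B cells of the same sort, which are mostly resting, gave 3.95% (2.06 to 6.79) and 3.05% (2.11 to 4.26) after thinning, at median depths of 3762 and 3420.0 UMIs.

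The other classes lay closer to that background. Camp-mid neutrophils had 5.14% (3.32 to 7.55) set-positive cells in wild type and 6.50% (5.41 to 7.74) in PyMT, and monocytes 5.18% (3.54 to 7.27) and 7.15% (5.93 to 8.54). Both PyMT intervals were above the PyMT B cell interval, while both wild-type intervals overlapped the wild-type one. Camp-low neutrophils had 1.82% (1 of 55 cells) and 2.53% (1.90 to 3.31), at or below B cells, and are read as background. Of progenitors, 33 of 46 (71.7%) and 39 of 50 (78%) were set-positive.

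Among neutrophils the set followed the Camp share of the cell, with a maximum at intermediate to high Camp. In PyMT, set-positive cells after thinning were 2.92% (2.12 to 3.92) of cells with under 0.25% Camp, 0.725% of cells at 0.5 to 1%, 1.62% at 1 to 2%, 8.04% (6.65 to 9.60) at 2 to 4% and 12.4% (10.7 to 14.2) at 4 to 6%. In wild type they were 4.65% at 1 to 2%, 5.25% (3.24 to 7.99) at 2 to 4%, 12.5% (10.3 to 15) at 4 to 6% and 14.5% (12.7 to 16.4) at 6 to 8%. Above 8% Camp the wild-type share was 7.49% (6.03 to 9.18), below that of the 6 to 8% band. The bands of 4 to 6% Camp, where both libraries had many cells (806 and 1425), gave 12.5% and 12.4%. PyMT had 169 cells at 6 to 8%, with 7.69% (4.16 to 12.8), and 16 cells above.

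**Figure D3:**
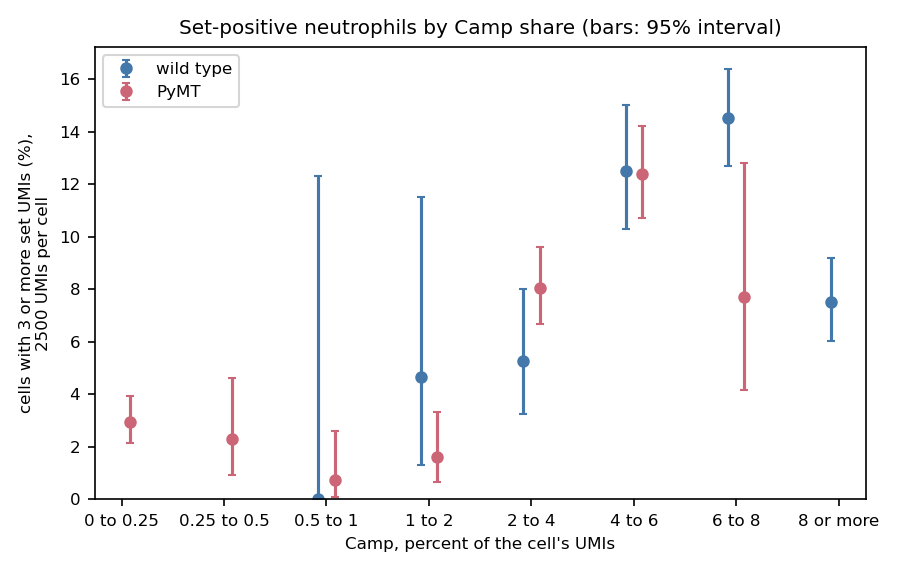
Percent of neutrophils with at least 3 UMIs of the 34 genes at 2500 UMIs per cell (y axis), by the Camp share of the cell (x axis), with 95% intervals for counting error. The libraries overlap at 4 to 6% Camp, with 12.5% in wild type and 12.4% in PyMT, and PyMT is lowest, 0.725%, at 0.5 to 1%.

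Within the PyMT library, where both ends are well filled, 30 of 32 members with enough UMIs were at least 1.5-fold higher in Camp-high than in Camp-low neutrophils and 1 was lower, while 20.3% of all genes tested were higher and 26.9% lower. The median log2 ratio was 3.86 for the members and -0.06 for all genes. The set sum was 4.18-fold higher in Camp-high cells of PyMT (log2 2.06, 1.98 to 2.14) and 3.37-fold in wild type (log2 1.75, 1.39 to 2.13), where the 55 Camp-low cells held 63 UMIs of the set and the log2 ratio was 0.77 with a progenitor threshold of 0.2%. Hmmr, a spindle-binding protein, had 7.74 CPM in PyMT Camp-high and 0.10 CPM (1 UMI) in Camp-low cells. Ccnb1, cyclin B1, had 10.3 and 0.300 CPM, and Stmn1, stathmin, which destabilises microtubules, had 72.5 and 3.30 CPM. Kif2c, a kinesin that depolymerises microtubules at centromeres, had 56 UMIs in Camp-high and none in Camp-low cells, which with a floor of 3 counts for the whole Camp-low class bounds its log2 ratio at 3.27 or more.

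Some members were also present in cells with few UMIs of the other members, where such cells were told apart after thinning. Cks2, a small subunit that binds cyclin-dependent kinases, had 673 UMIs in PyMT Camp-low cells (67.4 CPM), spread over 19.1% of those cells, and 0.743% of these UMIs lay in cells with at least 3 UMIs of the other 33 members. Kif23, a kinesin of the midzone and the member that was lower in Camp-high cells (log2 -0.83, -1.17 to -0.50), had 147 UMIs in 139 PyMT Camp-low cells, with 2.04% of them in cells with 3 UMIs of the other members. Such cells were 2.14% of the class, so Kif23 UMIs were not concentrated there. Smc4, a condensin subunit, was also present in B cells, with 73.4 CPM in wild type and 68.4 CPM in PyMT. Of its UMIs 9.38% and 15.2% lay in cells with 3 UMIs of the other members, which were 1.97% and 2.22% of B cells, so most Smc4 UMIs lay elsewhere but were enriched in those cells. Racgap1, a cytokinesis gene, had 36.1 and 39.5 CPM in monocytes of wild type and PyMT. Of its UMIs there 16.5% and 22.0% lay in cells with 3 UMIs of the other members, which were 4.84% and 6.71% of monocytes. Without Stmn1, Cks1b and Cks2 in the set the PyMT ratio of Camp-high over Camp-low was larger (log2 2.52). At full depth, PyMT Camp-low cells with at least 3 UMIs of the set held a median of 2 different members, against 5 in Camp-high. Median depth was 4059 UMIs per PyMT Camp-low cell and 11522 per PyMT Camp-high cell, and its part in this difference was not tested.

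Comparing the libraries class by class, the set sum of Camp-high neutrophils was lower in PyMT, 622 against 978 CPM (log2 -0.65, -0.68 to -0.62). In Camp-high cells 17 of 34 members were at least 1.5-fold lower in PyMT and 0 were higher, but the scale of the whole class was shifted the same way: 39.8% of all genes tested were at least 1.5-fold lower and 3.36% higher, and the median gene had a log2 ratio of -0.43, beside -0.57 for the members. Relative to the median gene the set sum was at -0.22, with 2 members higher (Ccnb1 and Ccnb2) and 7 lower. The share of all genes past 1.5-fold was not computed on that scale, so these counts have no background beside them. The set sum also moved with the weighting and depth of cells. Wild-type set-positive cells had a median of 12958 UMIs, against 5484 for other Camp-high cells, and those of PyMT 14616 against 11299. The part of these depths in the difference was not tested. With equal weight per cell the log2 ratio of the set sum was -0.23, and with cells thinned to 2500 UMIs it was -0.21. It was -0.49 within the 4 to 6% Camp band, a restriction added after seeing the data, and -1.49 with the Camp-high threshold at 6%, which leaves few PyMT cells.

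With every Camp-high cell thinned to 2500 UMIs, a comparison of single members added after seeing the data, 28 members had enough UMIs, and PyMT was past 1.5-fold higher for 5 of them and past 1.5-fold lower for 9. Of all genes tested in these thinned cells 4.34% were higher and 25.5% lower, and the medians were -0.04 for the members and -0.24 for all genes. The 5 higher were Hmmr (2.92 and 8.20 CPM, log2 1.49, 0.69 to 2.30), Ccnb1 (3.74 and 7.70 CPM, log2 1.04, 0.28 to 1.80), Ccnb2 (19.4 and 34.8 CPM, log2 0.84), Cdc20 (14.4 and 24.8 CPM, log2 0.79) and Cenpa (0.75). The 9 lower were Kif11 (-1.57), Ncapd2 (-1.23), Nusap1 (-1.04), Top2a (27.3 and 13.7 CPM, log2 -1.0), Aurkb (-0.96), Smc4 (-0.77), Cdk1 (-0.75), Cks2 (-0.68) and Prc1 (-0.63). Ube2c (0.13) and Racgap1 (0.05), past 1.5-fold lower at full depth, were near equal, and Mki67 (-0.50), Smc2 (-0.47), Stmn1 (-0.47) and Cks1b (-0.10) were within 1.5-fold. The values by role that follow are at full depth.

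Chromosome structure genes were at the low end. Their summed level was 209 CPM in wild type and 91.9 CPM in PyMT (log2 -1.19, -1.26 to -1.11). Top2a, topoisomerase II alpha, which untangles sister chromatids, had 47.9 and 16.2 CPM (log2 -1.56, -1.75 to -1.38). Mki67, the proliferation marker that coats mitotic chromosomes, had 38.9 and 16.6 CPM (log2 -1.23). The condensin genes were lower too: Ncapd2 had 8.61 and 3.01 CPM (log2 -1.52), Smc4 83.2 and 39.5 CPM (log2 -1.07), and Smc2 30.5 and 16.6 CPM (log2 -0.88). All 5 were at least 1.5-fold lower in PyMT, and their ratios were below that of the median gene.

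Cyclins and their kinase had different ratios. Ccnb1, cyclin B1, had 7.70 CPM in wild type and 10.3 CPM in PyMT (log2 0.42, 0.13 to 0.71), and Ccnb2, cyclin B2, 31.8 and 38.3 CPM (log2 0.27, 0.12 to 0.41). Cdk1, their catalytic partner, had 23.7 and 11.7 CPM (log2 -1.02, -1.24 to -0.80). Over all Camp-high cells the 2 B-type cyclins thus had intervals above 0 while Cdk1 was past 1.5-fold lower. Ccna2, cyclin A2, was between them with 26.1 and 18.4 CPM (log2 -0.51). The CDK-binding subunits Cks1b (log2 -0.62) and Cks2 (153 and 90.6 CPM, log2 -0.75) were past 1.5-fold, and Cks1b reads could be split with a near-identical row, Cks1brt, that the matrices also hold. Within the 4 to 6% Camp band, a restriction added after seeing the data, Cdk1 was at -0.31 (-0.65 to 0.04), an interval that reached 0. In that band Ccnb1 was at 1.08 and Ccnb2 at 0.63, and Cks1b (-0.53) and Cks2 (-0.54) were within 1.5-fold.

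Of the kinases and checkpoint genes, Aurkb and Bub1 were past 1.5-fold lower. Aurkb, the Aurora kinase of the chromosomal passenger complex, had 12.4 CPM in wild type and 5.19 CPM in PyMT (log2 -1.26, -1.60 to -0.93). Birc5, survivin, of the same complex, had 59.4 and 42.6 CPM (log2 -0.48, -0.60 to -0.36), and Incenp and Cdca8, further subunits from the list of other mitosis genes, had log2 ratios of -0.66 (-0.91 to -0.41) and -0.51 (-0.68 to -0.33). The intervals of Birc5, Incenp and Cdca8 overlapped, and that of Aurkb lay below them. After thinning, Aurkb (-0.96, -1.92 to -0.10) and Birc5 (0.06, -0.25 to 0.37) had overlapping intervals. Plk1, Polo-like kinase 1, had 6.94 and 4.99 CPM (log2 -0.48, -0.85 to -0.11), Aurka, the centrosomal Aurora kinase, had a log2 ratio of -0.45, and Bub1b, a checkpoint protein, -0.43, each near the median gene.

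The anaphase-promoting complex and the centromere genes had the sums closest to equal. Cdc20, the activator of the anaphase-promoting complex, had 25.3 CPM in wild type and 27.9 CPM in PyMT (log2 0.14, -0.03 to 0.31). Ube2c, the E2 enzyme of that complex, had 50.9 and 31.3 CPM (log2 -0.70). Cenpa, the histone variant of centromeres, had 46.0 and 48.0 CPM (log2 0.06, -0.07 to 0.18), and Cenpe and Cenpf, kinetochore proteins, had log2 ratios of -0.24 and -0.41. The 3 centromere genes summed to 70.6 and 67.6 CPM (log2 -0.06, -0.17 to 0.04).

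Spindle and cytokinesis genes spread over the whole range. Kif11, the kinesin that pushes spindle poles apart, had 8.54 CPM in wild type and 2.86 CPM in PyMT (log2 -1.58, -2.03 to -1.15), and Anln, anillin, the scaffold of the contractile ring, 6.63 and 1.71 CPM (log2 -1.95, -2.54 to -1.41). These were the lowest ratios of all members. Stmn1 had 139.8 and 72.5 CPM (log2 -0.95), and Nusap1, Prc1 and Racgap1 were also past 1.5-fold lower, at -0.94, -0.95 and -0.68. Hmmr (0.07), Kif2c (-0.03), Kif20a (-0.04), Kif23 (-0.11), Tacc3 (-0.20) and Tpx2 (-0.26) had intervals that stayed within 1.5-fold of equal levels.

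Set-positive cells alone were also compared. They carried 84.8% of the set's UMIs of the Camp-high class in wild type and 81.7% in PyMT. A like pattern among them is therefore no separate result. In the 400 wild-type and 189 PyMT cells the set sum was 3591 and 3363 CPM. The cells were selected on that sum, so the ratios describe the make-up of the set within them. The selection draws the members, but not other genes, towards equal levels. Counts and medians of the members beside those of all genes therefore cannot show a difference between them here. Of 34 members 6 were higher in PyMT by 1.5-fold or more and 7 lower, where 3.70% of all genes tested were higher and 35.4% lower, and the median ratio was 0.01 for members and -0.38 for all genes. Relative to the median gene 10 were higher and 3 lower, with no share of all genes computed on that scale. The 6 were Ccnb1 (31.6 against 64.6 CPM, log2 1.03, 0.74 to 1.33), Cdc20 (102 against 169 CPM, log2 0.73, 0.55 to 0.90), Cenpa (0.70), Kif2c (0.64), Ccnb2 (115 against 179 CPM, 0.63) and Hmmr (0.62). The 7 were Anln (21.8 against 5.50 CPM, log2 -1.99), Ncapd2 (-1.12), Top2a (192 against 96.6 CPM, -0.99), Kif11 (-0.88), Aurkb (-0.77), Mki67 (152 against 96.6 CPM, -0.65) and Smc4 (-0.62). Within the 4 to 6% Camp band, Ccnb1 had 16.8 and 66.3 CPM in set-positive cells (log2 1.98, 1.41 to 2.58), Cdc20 76.3 and 174 CPM (log2 1.19) and Top2a 161 and 95 CPM (log2 -0.76), whereas Cdk1 turned to the PyMT side, 48.8 and 70.3 CPM (log2 0.52, 0.15 to 0.91). With the Camp-high threshold at 6%, where PyMT had 13 set-positive cells, Ccnb1 was at -0.04 and Cdc20 at -0.40.

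**Figure D4:**
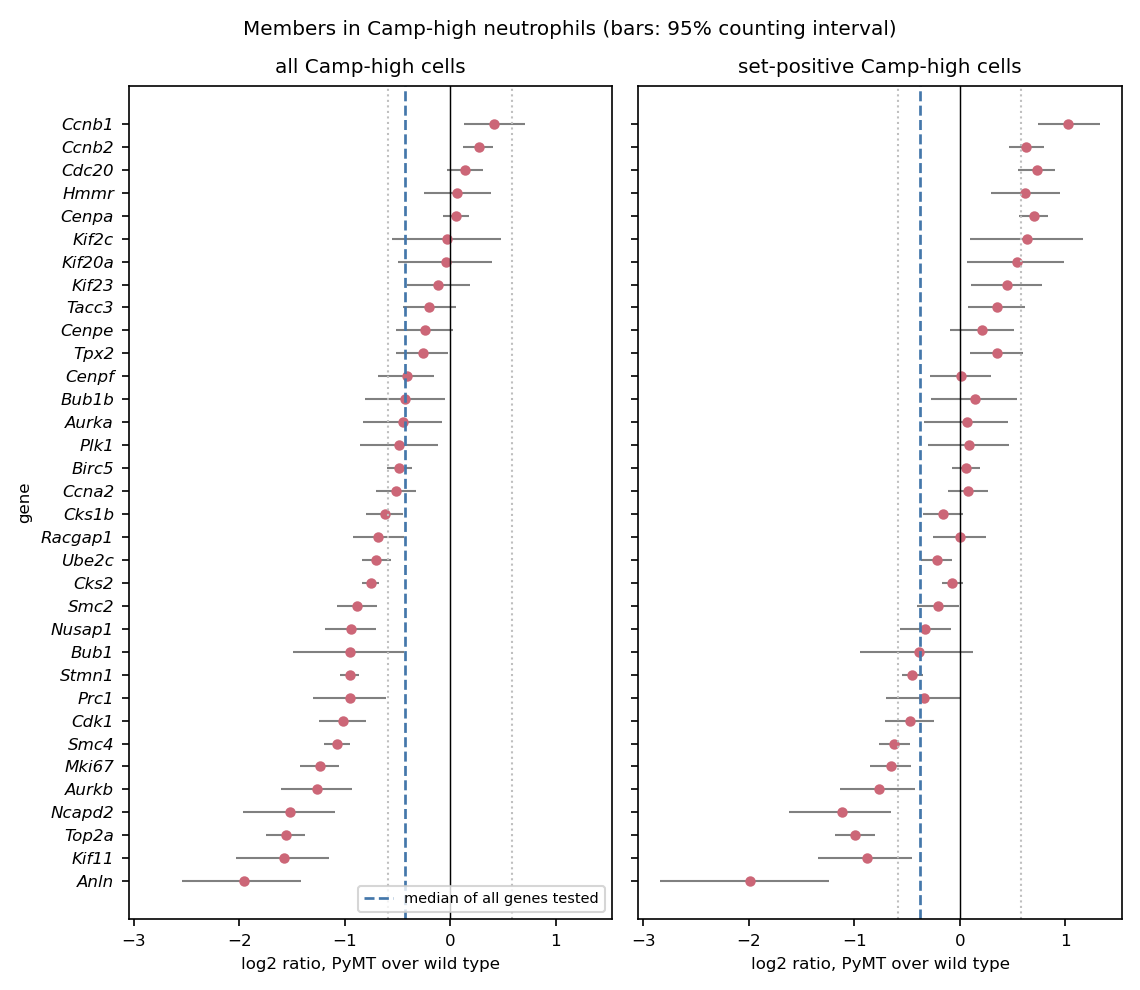
Log2 ratio of PyMT over wild type for each of the 34 genes in all Camp-high neutrophils (left) and in set-positive ones (right), with 95% counting intervals. Dotted lines mark 1.5-fold and the dashed line the median of all genes tested, -0.43 on the left and -0.38 on the right. Ccnb1 is the highest and Anln the lowest in both panels, which share cells.

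Camp-mid neutrophils gave the opposite sign. The set sum was 381 CPM in wild type and 454 CPM in PyMT (log2 0.25, 0.16 to 0.34), and 18 of 31 members with enough UMIs were higher in PyMT by 1.5-fold or more and 0 lower, whereas 5.16% of all genes tested were higher and 50.2% lower. The median was 0.63 for members and -0.59 for all genes. Plk1 had 0.641 CPM (2 UMIs) and 2.75 CPM (log2 2.1, 0.17 to 5.18), Cdc20 4.49 and 16.1 CPM (log2 1.84, 1.07 to 2.73), Ccnb1 2.24 and 7.27 CPM (log2 1.70) and Ccnb2 11.2 and 25.8 CPM (log2 1.20, 0.70 to 1.74). Birc5 was higher too, with 16 and 29.7 CPM (log2 0.89). At the other end Smc4 (47.8 and 34 CPM, log2 -0.49) and Racgap1 (log2 -0.44) had the lowest ratios, and Top2a (-0.33), Cks2 (-0.31), Mki67 (-0.18), Stmn1 (0.07), Cdk1 (0.11) and Aurkb (0.12) were within 1.5-fold. The anaphase-promoting complex pair summed to 16.7 and 39.5 CPM (log2 1.25), the chromosome structure genes to 94.3 and 74.7 CPM (log2 -0.34). The sign of the sum depended on where Camp was divided. It was -0.35 with limits of 3% and 0.75%, with 2 of 17 members higher and 5 lower. With limits of 6% and 1.5% it was -0.40, with 4 of 34 members higher and 10 lower. Shares of all genes were not computed for these limits, so the counts have no background beside them. In PyMT 904 neutrophils lay at 3.5 to 4.5% Camp, around the upper limit, against 294 in wild type, and 24 wild-type cells of the class were set-positive. Progenitor markers were 41 CPM in wild-type and 77.4 CPM in PyMT Camp-mid cells (7 of 7 detected in both) and neutrophil markers 336048 and 463360.3 CPM, and their part in the difference was not tested. Scrublet, a caller of doublets, marked 1.93% and 10.2% of Camp-mid cells. Without them the set sum was at 0.24, with 14 of 27 members higher and 0 lower, again with no share of all genes computed.

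Monocytes had a small difference in the same direction as Camp-mid neutrophils. The set sum was 495 CPM in wild type and 596 CPM in PyMT (log2 0.27, 0.19 to 0.34). Of 30 members with enough UMIs 8 were higher in PyMT by 1.5-fold or more and 0 lower, beside 7.71% of all genes higher and 9.0% lower, with medians of 0.45 and 0.00. Tpx2, which activates Aurora A on the spindle, had 3.38 and 7.79 CPM (log2 1.21, 0.36 to 2.17) and Tacc3, a spindle protein, 4.16 and 8.04 CPM (log2 0.95). Cdc20 had 8.58 and 14.8 CPM (log2 0.78), Ube2c 19 and 31.7 CPM (log2 0.74) and Ccnb1 5.72 and 9.52 CPM (log2 0.73), so both anaphase-promoting complex genes and cyclin B1 were past 1.5-fold. Smc2 (-0.20), Aurkb (-0.20), Smc4 (-0.13), Mki67 (-0.06) and Cks2 (0.04) were at the other end. Progenitor markers were 33.5 CPM in wild-type and 176 CPM in PyMT monocytes (7 of 7 markers detected in both), and their part in the difference was not tested.

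B cells and Camp-low neutrophils gave little. In B cells 6 members had enough UMIs, none past 1.5-fold, while 12.9% of all genes tested were higher and 4.19% lower, and the set sum was 262 and 290.0 CPM (log2 0.14, -0.03 to 0.32). In Camp-low neutrophils the set sum was 290.5 CPM, from 63 UMIs in 55 cells, and 149 CPM (log2 -0.96, -1.33 to -0.58), and -0.30 with cells thinned to 2500 UMIs. In progenitors, Stmn1 had 307 CPM in wild type and 537 CPM in PyMT, Ccnb1 15.6 and 46.9 CPM, Cdc20 43.9 and 99.6 CPM, and Mki67 101 and 79.1 CPM. Basophil and mast cell markers were present in the PyMT class only, and their part in these values was not tested.

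Genes of DNA replication, which act in S phase before the members, were further below equal levels than the members in PyMT Camp-high neutrophils. In Camp-high neutrophils 31 of 37 replication genes with enough UMIs were at least 1.5-fold lower in PyMT and none higher, beside 39.8% and 3.36% of all genes, with a median log2 ratio of -1.08, against -0.57 for the members and -0.43 for all genes. In thinned cells 10 of 20 were lower and 0 higher, beside 25.5% of all genes lower, with a median of -0.62. The largest differences were Ticrr (3.43 and 0.571 CPM, log2 -2.59), Pola1 (-2.38), Hells (-1.88) and Mcm10 (-1.88). In set-positive cells 20 of 36 were lower, beside 35.4% of all genes, with a median of -0.61, beside -0.38 for all genes. The members, on which these cells were selected, had a median of 0.01 there, which cannot be set against the other lists. A list of other mitosis genes had 26 of 39 lower and 1 higher in Camp-high neutrophils (median -0.72), and 3 of 15 lower and 3 higher in thinned cells (median -0.05). At full depth the gene higher in PyMT was Cdc25b, the phosphatase that activates CDK1 at the entry to mitosis, with 4.12 and 15.1 CPM (log2 1.88, 1.55 to 2.21). Cdc25b was also the highest of that list in Camp-mid neutrophils, with 3.85 and 25.8 CPM (log2 2.75). In Camp-mid neutrophils 11 of 21 other mitosis genes were higher and 1 lower (median 0.60), whereas 5.16% of all genes were higher and 50.2% lower. Of the replication genes 19 of 29 were lower and 0 higher there, with a median of -0.75 that lay near the -0.59 of all genes.

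Cell by cell, replication and mitosis transcripts coincided more often in wild type. Of the 400 wild-type set-positive Camp-high cells, 236 (59.0%, 54.0 to 63.9) also held at least 3 UMIs of the replication list after thinning, against 48 of 189 (25.4%, 19.4 to 32.2) in PyMT. The intervals did not overlap, with counting error as their only source. Within the 4 to 6% Camp band the shares were 56.4% (57 of 101 cells) and 23.9% (42 of 176), and in Camp-mid neutrophils 50% (12 of 24) and 26.5% (31 of 117). With the Camp-high threshold at 6% the PyMT share was 46.2%, among few cells. Monocytes had 29.0% (14.2 to 48.0) and 34.5% (25.8 to 44.0), with overlapping intervals. As a share of all Camp-high cells, those with both sets were 6.90% in wild type and 2.98% in PyMT. Wild-type set-positive cells had 1649.9 CPM of replication UMIs and PyMT ones 1092 CPM.

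**Figure D5:**
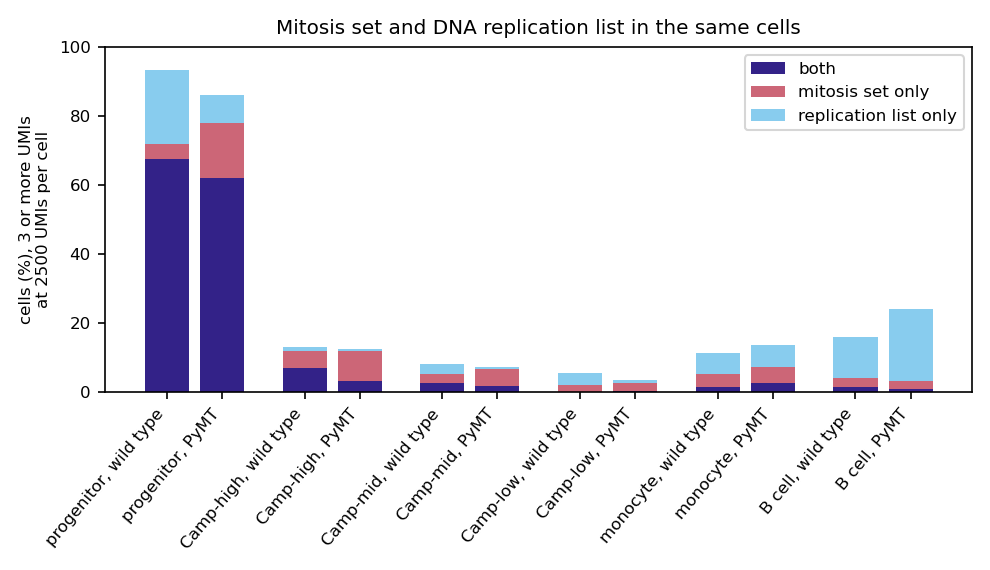
Percent of cells with at least 3 UMIs, at 2500 UMIs per cell, of both the 34 mitosis genes and the 40 replication genes, of the mitosis genes only or of the replication genes only, by class and library. The segment for both is 6.90% of wild-type and 2.98% of PyMT Camp-high neutrophils, and replication genes alone are most frequent in progenitors and B cells.

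Outside the cell cycle lists, set-positive Camp-high cells differed from Camp-high cells with no UMI of the set (2121 in wild type, 1096 in PyMT, after thinning), and genes were named only where both libraries had the same direction. The 10 highest were Fbxo5, Asf1b, Hist1h2ap, Tuba1b, Hmgb3, Lockd, Dbf4, Hist1h2ak, H2afx and Tipin. Fbxo5, Emi1, an inhibitor of the anaphase-promoting complex, had 78 CPM in set-positive and 0.587 CPM in set-negative cells of wild type and 53.9 and 0.0802 CPM in PyMT. Tuba1b, an alpha-tubulin, had 796 and 20.2 CPM in wild type and 426 and 14.9 CPM in PyMT. The lowest were Mmp8, Mmp9, Chil5, Gpr27, Fpr1 and Acvrl1. Mmp8, neutrophil collagenase, had 224 CPM in set-positive and 900.4 CPM in set-negative wild-type cells, and 93.1 and 479 CPM in PyMT, and Mmp9, gelatinase B of the late-made granules, 244 and 895 CPM and 201 and 627 CPM. Progenitor markers summed to 194 CPM in set-positive and 27.2 CPM in set-negative cells of wild type and to 316 and 73.6 CPM in PyMT. NK cell markers were higher in set-positive cells too, with 40 and 13 CPM in wild type and 27.8 and 7.86 CPM in PyMT, where 2 of 4 were at 0. Macrophage markers had 8.43 and 2.13 CPM in wild type and 6.19 and 1.60 CPM in PyMT, with all 4 detected. T cell markers were lower, with 187 and 431 CPM and 139.5 and 243 CPM, and 1 and 2 of 5 were at 0 in set-positive cells. In wild-type Camp-low neutrophils Cd3d alone gave the 498 CPM of that list. The part of these markers in the differences was not tested. Neutrophil markers made up 421666 and 504621 CPM in wild type and 474718 and 512595 CPM in PyMT; the class rule itself asks for a high level of such transcripts in every cell compared.

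Over the 12 sums of 6 classes in 2 libraries, the genes outside the lists whose level most resembled the set sum were Hist1h2ap (Pearson r 0.975 on log2 of CPM + 10), Hmgb3 (0.973), Ska1 (0.963), Mxd3 (0.957), B4galt6 (0.957), Tmed3 (0.956), Asf1b (0.954), Hist1h2ak (0.952) and Hist1h1d (0.951), from the first 10 of 8239 genes ranked. Among the members themselves, r with the sum of the set ranged from 0.988 for Stmn1 and 0.981 for Birc5 down to 0.818 for Ncapd2 and 0.618 for Kif23. The 12 sums share 2 libraries and differ in depth, so these values only describe likeness.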

How the data were processed

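Single-cell 3' RNA libraries (10x Genomics, kit version 2, an average of 48488 reads per cell) were made from pooled mice, per the labels' protocols. The authors used Cell Ranger 2.1.0 and the mm10 build to process the reads, per the submitters' processing notes, and deposited 1 matrix of UMI counts (raw whole numbers) per library. The annotation and any filter on cells before deposit are not given in the sources used here, and the lowest cell totals were 2752 and 2502 UMIs.

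The cell filter asked for 200 detected genes and no more than 10% of UMIs from mitochondrial genes (5 PyMT cells left out). Counts were summed per class and scaled to the class total (CPM). The log2 ratio of 2 sums carries the exact conditional interval, shares of cells the Clopper-Pearson interval and levels the Poisson interval, at 95%, computed in Python 3.11.15 with scipy 1.17.1. The code for ratios was run on simulated independent Poisson sums, the model these intervals assume. That run cannot show how they behave for UMIs that lie together in few cells, and the intervals do not cover that spread. Ratios needed 50 UMIs over both sums, and a difference counted from 1.5-fold (0.58 on the log2 scale). Each cell was also thinned at random to 2500 UMIs. Doublets stayed in and were left out as an alternative (Scrublet in scanpy 1.11.5, 241 wild-type and 670 PyMT cells). Cells that met the rules of both monocytes and B cells, 71 in each library, counted as monocytes. The edgeR test was not used, since each group has 1 library.

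The members and all lists were chosen with earlier results of these data known. The text accounts for all 34 members, with values for the 2 highest and 2 lowest of a class and for Mki67, Top2a, Cdk1, Ccnb1, Ccnb2, Plk1, Cdc20, Aurkb, Birc5, Stmn1 and Cks2, and from other lists up to 4 genes with the largest ratio. Outside the lists, 10 genes by Pearson r and 10 highest and 6 lowest genes of set-positive cells are named. Promoter windows come from RefSeq, and all 28 were checked to read along a GENCODE M21 transcript. Protein motifs were not analysed here. Alternatives changed the scaling, cell filter, class limits, doublets, weighting, members and thresholds. One gene of the ranking by likeness to the set sum is not reported here.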

Additional observations from a re-analysis of the deposited data

Results flagged for a closer look

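The set sum differed in direction between cell classes of the same 2 libraries. As log2 of PyMT over wild type it was -0.65 in Camp-high neutrophils, 0.25 in Camp-mid neutrophils and 0.27 in monocytes. The difference between classes was not tested, since each group has 1 library. The direction in Camp-mid neutrophils depended on the Camp limits. Their set sum was at -0.35 with limits of 3% and 0.75% and at -0.40 with 6% and 1.5%. Camp-high neutrophils were at -0.58 and -1.49 under these limits, so both neutrophil classes then had the same sign. Relative to the median gene of each class, the set sum was -0.22 in Camp-high neutrophils, 0.84 in Camp-mid neutrophils and 0.26 in monocytes.

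Cells that no class rule took, 600 in wild type and 974 in PyMT, also held the set, at 1069 CPM in wild type and 698 CPM in PyMT. Of them, 401 and 437 had neutrophil levels of S100a8 and S100a9 together with at least 2 UMIs of Cd79a and Cd79b, and Scrublet marked 18.2% and 26.0% of the unclassified cells as doublets. Set-positive cells after thinning were 17.3% (14.4 to 20.6) and 11.4% (9.47 to 13.6) of them, and the part of doublets in these values was not tested.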

How the results depend on the processing

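Of 19 alternatives, leaving the cells unfiltered, a stricter cell filter, leaving out doublets or cells of both the monocyte and B cell rules and a minimum of 20 UMIs moved no set sum out of its counting interval and no member count by over 1.5 times. Values below are log2 ratios of the set sum, PyMT over wild type, unless stated, and the cause of a shift was not tested where none is given. Member counts under the alternatives stand without a share of all genes, which was computed only for thinned Camp-high cells. Scaling to the median gene gave -0.22 in Camp-high and 0.84 in Camp-mid neutrophils, and the trimmed mean of M-values -0.22, 1.01 and, in Camp-low, -0.55, with 2.26 for Camp-high over Camp-low in PyMT. Both scalings gave 2 members higher and 7 lower in Camp-high neutrophils, and 10 and 11 higher with 3 lower in set-positive ones. Camp limits of 3% and 0.75% gave -0.58 in Camp-high and -0.35 in Camp-mid neutrophils, where 2 members were higher and 5 lower and Ccnb1 (-0.03), Ccnb2 (-0.26), Cenpa (-0.72) and Tpx2 (-0.09) changed sign. Camp limits of 6% and 1.5% left 13 set-positive Camp-high cells in PyMT and gave -1.49 in Camp-high neutrophils with 34 members lower, 1.26 for Camp-high over Camp-low in PyMT, 20% and 16.8% of Camp-high cells with 3 UMIs in wild type and PyMT, and 46.2% of PyMT set-positive cells with replication UMIs. Under these limits Camp-mid was at -0.40 with 4 members higher and 10 lower, and Ccna2 (-0.32), Plk1 (-0.18), Aurka (-0.05), Birc5 (-0.12), Bub1b (-0.43), Ube2c (-0.11), Cenpf (-0.28) and Nusap1 (-0.53) changed sign there. In set-positive cells 0 members were then higher and 12 lower, and Ccnb1 (-0.04), Cdc20 (-0.40), Hmmr (-0.99) and Kif11 (0.30) changed sign.

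A progenitor threshold of 0.2% gave -1.97 in Camp-low neutrophils and 0.77 for Camp-high over Camp-low in wild type. Equal weight per cell gave -0.23 in Camp-high, -0.47 in Camp-low neutrophils, 0.19 in monocytes and -0.12 in B cells, with 1.36 and 1.60 for Camp-high over Camp-low in wild type and PyMT. Thinning to 2500 UMIs, applied to single members after seeing the data, left 28 members in Camp-high, with 5 higher and 9 lower and Ube2c (0.13) and Racgap1 (0.05) changing sign, 8 in Camp-mid, with 4 higher, and 13 in monocytes, with 3 higher. It gave set sums of -0.21, 0.34 and -0.30 in Camp-high, Camp-mid and Camp-low neutrophils and -0.20 in B cells, 1.62 for Camp-high over Camp-low in PyMT, and 11.7% of Camp-high cells with 3 UMIs in both libraries. Without Cks2, Stmn1 and Smc4, the members with the most UMIs, the same 3 neutrophil classes were at -0.52, 0.59 and -1.36, and PyMT Camp-high over Camp-low at 2.87. Without Stmn1, Cks1b and Cks2 Camp-high was at -0.58, Camp-mid at 0.45 and PyMT Camp-high over Camp-low at 2.52, with 14.9% and 18.8% of wild-type and PyMT Camp-high cells at 3 UMIs. A minimum of 200 UMIs, which tests fewer members, left 6 higher in Camp-mid neutrophils and 2 in monocytes. At 2-fold, 8 members were lower in Camp-high, 8 higher in Camp-mid neutrophils, 1 higher in monocytes, and 1 higher and 2 lower in set-positive cells. A limit of 2 UMIs gave 32.8% of wild-type and 39.1% of PyMT Camp-high cells, and 5 UMIs 14.8% and 17.4%. Limiting Camp-high to 4 to 6% Camp, chosen after seeing the data, gave -0.49, with 3 of 34 members higher and 13 lower. In set-positive cells of that band 11 of 34 were higher and 5 lower, and 26.1% of its wild-type cells had 3 UMIs. No paired analysis was possible because each group has 1 library. Depth limits members under 50 UMIs in a class, which have no ratio, and the 55 wild-type Camp-low cells.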

Other observations

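Regulators of the cycle outside mitosis were also measured. In Camp-high neutrophils 9 of 15 G1 cyclins, CDKs and inhibitors with enough UMIs were at least 1.5-fold lower in PyMT and 0 higher, with a median log2 ratio of -1.01, beside 39.8% of all genes lower and 3.36% higher and a median of -0.43. In cells thinned to 2500 UMIs 4 of 12 were lower and 0 higher (median -0.35), beside 25.5% of all genes lower (median -0.24). Cdkn1a, the p21 inhibitor, had 8.16 CPM in wild type and 1.66 CPM in PyMT (log2 -2.30, -2.88 to -1.75), and Trp53, which encodes the p53 factor that induces it, had 17.4 and 7.32 CPM (log2 -1.25). Rb1 (-1.21) and Cdk6 (-1.16) followed. Cdkn1a was also the lowest of its list in Camp-mid neutrophils, with 13.8 and 3.02 CPM (log2 -2.19).

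Of the DREAM, MuvB, E2F and NF-Y regulators, 12 of 21 were lower and 1 higher in PyMT Camp-high neutrophils (median -0.87, beside the same values for all genes), and 2 of 11 were lower and 0 higher in thinned cells (median -0.15). In set-positive cells 11 of 18 were lower and 0 higher (median -0.77), beside 35.4% of all genes lower and 3.70% higher (median -0.38). The 1 higher regulator, named after its values were seen, was Tfdp1, the dimer partner of E2F factors, with 1.33 and 2.23 CPM (log2 0.74, 0.07 to 1.43). Mybl2, the MYB subunit that joins MuvB in S phase, had 6.90 and 1.77 CPM in Camp-high neutrophils (log2 -1.97, -2.54 to -1.43). Lin52 (-2.27), E2f6 (-1.99) and E2f7 (-1.84) rest on fewer UMIs. In monocytes E2f2 had 9.36 and 17.3 CPM (log2 0.89, 0.37 to 1.44). The cyclin D genes Ccnd1 (7.02 and 2.13 CPM, log2 -1.72) and Ccnd2 (7.54 and 2.95 CPM, log2 -1.35) were lower there in PyMT. Their list of G1 cyclins, CDKs and inhibitors was not lower as a whole in monocytes. Of 15 genes with enough UMIs, 3 passed 1.5-fold upwards and 2 downwards, 9 lay above 0 and 6 below, and the median was 0.15. Among all genes of that class 7.71% passed upwards and 9.0% downwards, with a median of 0.00.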
